A study of Sus scrofa with 12 samples.

Results

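The genes described here are the cytosolic ribosomal proteins of the pig, the protein part of the ribosome that works in the cytoplasm. They were chosen by name: every gene whose symbol starts with RPL or RPS followed by a number, or is RPLP0, RPLP1, RPLP2 or RPSA, without the S6 kinases and the L-suffixed paralogs, plus both gene identifiers that stand for RPL14. The rule gave 24 of the 22861 genes in the expression table, 14 of the small and 10 of the large subunit. The gene name table named 23 of them. The other one, ENSSSCG00000024107, has no symbol there and is called the RPL14 ortholog below. It is so named in the study's supplementary list of genes that differed between the genetic types. That list comes from the same animals, so tests of the RPL14 ortholog are not independent of its inclusion. Of 78 subunit names searched, 23 matched a gene and 55 matched none under that name. RPS6, RPSA, RPLP0 and RACK1 are among the names with no match and were not analysed here.

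RNA was sequenced from the Biceps femoris, a muscle of the hind limb, of newborn male piglets at postnatal day 1. The study compared 6 purebred Iberian piglets (IB), a fat and slow-growing type, with 5 Iberian x Duroc crossbred piglets (IBxDU). All mothers were Iberian sows, and their boars were Iberian for IB and Duroc for IBxDU, so each crossbred piglet carries 1 Duroc chromosome set. The piglets came from several litters, and the litter of each animal is not given in the sources used here. The sixth IBxDU animal of the labels has no values and is left out here. The paper discarded 1 IBxDU pig that fell far from its expected place in a clustering, probably through sampling or processing problems.

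The ribosome is built from a small subunit, which reads the messenger RNA, and a large subunit, which joins the amino acids. Each subunit holds ribosomal RNA and a single copy of most of its proteins, while the acidic stalk proteins RPLP1 and RPLP2 are present in several copies. In mammals most ribosomal protein messengers carry a terminal oligopyrimidine tract, and their translation is regulated as a group downstream of mTOR. Muscle of a newborn is a growing tissue in which protein synthesis and ribosome production are high.

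Values are RPKM, reads scaled to exon length and to the mapped reads of the library, with 1 value per gene and animal. Whole reads could be recovered from them for all 16953 genes above 0, and the libraries held 16940746 to 30630157 exon reads each. The ribosomal protein genes had between 2440 and 64664 reads per animal, except RPS21 with 189 to 758. Skeletal muscle markers were abundant in every library, with ACTA1, DES and TNNC1 together at 30064 to 36078 RPKM in the IB and 21357 to 46696 in the IBxDU libraries. Markers of other cell types ranged widely in both genetic types: summed adipocyte markers lay at 0.412 to 60.7 RPKM in IB and 3.12 to 108 in IBxDU, connective tissue markers at 769 to 2050 and 507 to 3811, macrophage markers at 19.7 to 54.4 and 11.2 to 149, and red cell markers at 287 to 559 and 369 to 729. PDGFRA, a connective tissue marker, was listed at 0 in all animals. In whole muscle, fewer cells of a type and less RNA per cell cannot be told apart.

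RPL14, a protein of the large subunit, is counted on 2 gene identifiers in this table, and they differed between the genetic types in opposite directions. The RPL14 ortholog was at 196, 154, 225, 194, 187 and 165 RPKM in IB-323, IB-330, IB-345, IB-431, IB-503 and IB-504. It was at 420, 305, 477, 393 and 595 RPKM in IBxDU-402, IBxDU-412, IBxDU-426, IBxDU-427 and IBxDU-429. All 5 IBxDU animals lay above all 6 IB animals, and the gap ran from 225 in IB-345 to 305 in IBxDU-412. Mean RPKM was 187 ± 25.2 against 438 ± 107 (SD, n = 6 and 5). Taken from the mean log2 values, the difference was 2.31-fold. On the log2(RPKM + 0.1) scale this was 1.21 (SE 0.17, 95% confidence interval 0.83 to 1.58, adjusted p = 0.0419 by limma with Benjamini-Hochberg adjustment over 11875 genes). It was the 1 member that passed this test, beside a background of 0.0168% of all genes tested (2 genes, both higher in IBxDU). The call sat close to the threshold. The adjusted p was 0.0123 without IBxDU-412, but leaving out any other animal ended the call, with values up to 0.235 without IBxDU-426, while the difference itself stayed between 1.09 and 1.33.

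The gene annotated as RPL14 (ENSSSCG00000011272) was at 523, 425.8, 600, 551, 559 and 477 RPKM in the IB animals, in the same order. In the IBxDU animals it was at 415, 313, 240, 407 and 261 RPKM. Here every IBxDU animal lay below every IB animal, with 415 in IBxDU-402 next to 425.8 in IB-330. The means were 523 ± 62.6 and 327 ± 81.1 RPKM (SD, n = 6 and 5). Taken from the mean log2 values, IB was 1.63-fold higher. The log2 difference was -0.70 (SE 0.17, 95% confidence interval -1.07 to -0.33) and did not pass limma's test over all genes (adjusted p = 0.405). For each identifier alone, an exact two-sided permutation test over the animals gave p = 0.00433, the smallest p that 6 against 5 animals allow. Both RPL14 identifiers, and no other member, had groups that do not overlap, which occurred in 1.04% of all genes tested (0.808% with IBxDU above and 0.227% with IB above). For the RPL14 ortholog, included because it had differed in these animals, neither result is independent support.

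Added together, the RPL14 identifiers gave a level that the data did not separate. The sum was 709 ± 86.6 in IB (range 579 to 825) and 765 ± 97.8 in IBxDU (range 618 to 856), with overlapping groups (SD, n = 6 and 5). Its log2 difference was 0.11 (95% confidence interval -0.19 to 0.41, exact two-sided permutation p = 0.372), and it turned to -0.01 with a median-of-ratios scaling and to -0.0014 with an upper quartile scaling of the animals.

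What separated the genetic types was how the RPKM counted as RPL14 was divided between its identifiers. The RPL14 ortholog made up 27.3, 26.5, 27.2, 26.1, 25.04 and 25.7% of the RPKM of both in the IB animals. It made up 50.3, 49.3, 66.5, 49.1 and 69.5% in IBxDU-402, IBxDU-412, IBxDU-426, IBxDU-427 and IBxDU-429. The IB animals lay within a narrow band (26.3 ± 0.881%, SD, n = 6, a coefficient of variation of 3.35%), whereas the IBxDU animals were spread over a wider one (57.0 ± 10.16%, SD, n = 5, 17.8%). In IBxDU, 3 animals lay between 49.1 and 50.3% and 2 at 66.5 and 69.5%, with none between. The groups did not overlap (exact two-sided permutation p = 0.00433, the smallest possible). This p is likewise not independent of how the RPL14 ortholog was chosen.

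These shares rest on many reads. Per animal 8903 to 18118 reads fell on the pair, and the 95% Clopper-Pearson interval of the read share spanned at most 0.942 percentage points to either side of it. These intervals cover counting error only. PCR copies are not independent molecules, nor are the reads of 1 fragment if they were counted singly. The IBxDU animals with the higher shares were IBxDU-426, the most deeply sequenced library, and IBxDU-429, among the shallower ones, with 30630157 and 17834366 exon reads. Their marker levels also differed, at 3.12 and 36.0 RPKM for the adipocyte and 507 and 1567 RPKM for the connective tissue markers. The part of depth and of cell content in the shares was not tested.

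**Figure D1:**
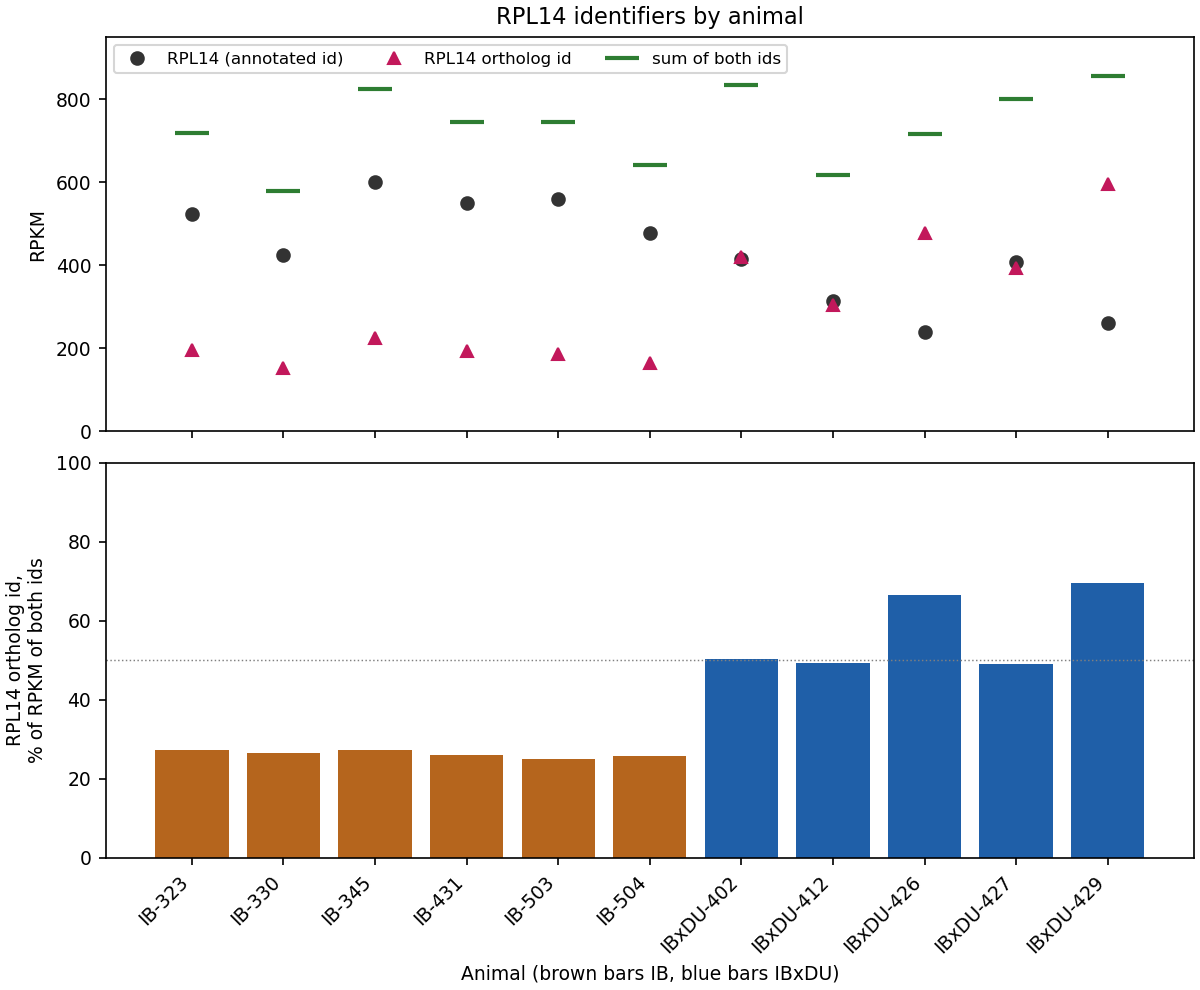
The upper panel plots RPKM of the RPL14 ortholog (triangles), the annotated RPL14 (circles) and their sum (bars) for each animal, and the lower panel the share of the RPL14 ortholog in percent of both, with a dotted line at 50%. The share is 25.04 to 27.3% in all 6 IB animals, close to 50% in 3 IBxDU animals and 66.5 and 69.5% in the other IBxDU animals, while the sums of the groups overlap.

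Among the IB animals the identifiers were high and low together, with Pearson's r = 0.94 (exact permutation p = 0.0167, adjusted 0.0333 over the pair of coefficients) and Spearman's rho = 0.77 (exact permutation p = 0.103, n = 6). Without IB-330 and IB-504, the animals farthest from the median, r was 0.73 over the remaining 4. Other members also tended to be high or low together in an animal, so these p-values do not measure a link particular to RPL14. In IBxDU, too few animals for a correlation, IBxDU-426 and IBxDU-429 had the highest RPL14 ortholog (477 and 595 RPKM) and the lowest RPL14 values (240 and 261 RPKM). The files give no sequence or gene model for either identifier, and reads of near-identical copies may be assigned to one or the other by small differences in sequence. The level of each identifier alone is uncertain for that reason, and the part of read assignment in the result was not tested. Only the IBxDU animals carry a Duroc chromosome set, so read assignment and level cannot be told apart here. No member symbol was carried by more than 1 named identifier, but a search by name cannot find a copy without a symbol, such as the RPL14 ortholog itself.

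Genes that followed the RPL14 ortholog most closely over the 11 animals were sought among all genes tested, as a description without a test. The first was ENSSSCG00000022445, a gene without a name here (r = 0.98), with only 0 to 30 reads per animal and mean RPKM of 0.0591 in the purebred and 0.666 in the crossbred animals. It was listed at 0 in IB-330 and IB-504 and passed the filter on low values only through IBxDU. The next were ENSSSCG00000007692, also unnamed (r = 0.94), at 67.0 ± 3.63 and 93.9 ± 12.1 RPKM, and PLEKHH1, which encodes a pleckstrin homology domain protein (r = 0.94), at 1.03 ± 0.164 and 2.70 ± 0.888 RPKM. Within IB these last genes had r of only -0.02 and 0.18 with the RPL14 ortholog (n = 6), so their likeness was not seen among the IB animals. Within IBxDU their r was 0.89 and 0.80 (n = 5), over too few animals to weigh. ENSSSCG00000022445 had r = 0.95 within IB, but on values of only 0 to 0.170 RPKM. The annotated RPL14 ranked 69th from the other end, with r = -0.78.

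RPS21, a small protein of the small subunit, showed the next largest difference. It was at 124, 80.2, 106, 86.5, 90.4 and 70.7 RPKM in the IB animals. In the IBxDU animals it was at 91.9, 57.1, 76.4, 46.9 and 37.2 RPKM. The lowest values were those of IBxDU-429, IBxDU-427 and IBxDU-412, but IBxDU-402 and IBxDU-426 lay inside the IB range, so the groups overlapped. The means were 92.9 ± 19.1 and 61.9 ± 22.2 RPKM (SD, n = 6 and 5), with a log2 difference of -0.64 (SE 0.23, limma unadjusted p = 0.0151). It did not pass the test over all genes (adjusted p = 0.550). RPS21 was the least abundant member and the one with the fewest reads, and its model has an exon length of only 252 bases.

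The other 21 ribosomal protein genes differed little between the genetic types. Their log2 differences lay between -0.19 and 0.08 (SE 0.12 to 0.18), the lowest unadjusted p was 0.235, the lowest adjusted p 0.732 (limma), and the groups overlapped for all 21. For 19 of the 21 the whole 95% confidence interval lay within 0.5 log2 units of no difference, and over all of them the intervals reached from -0.53 to 0.38.

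**Figure D2:**
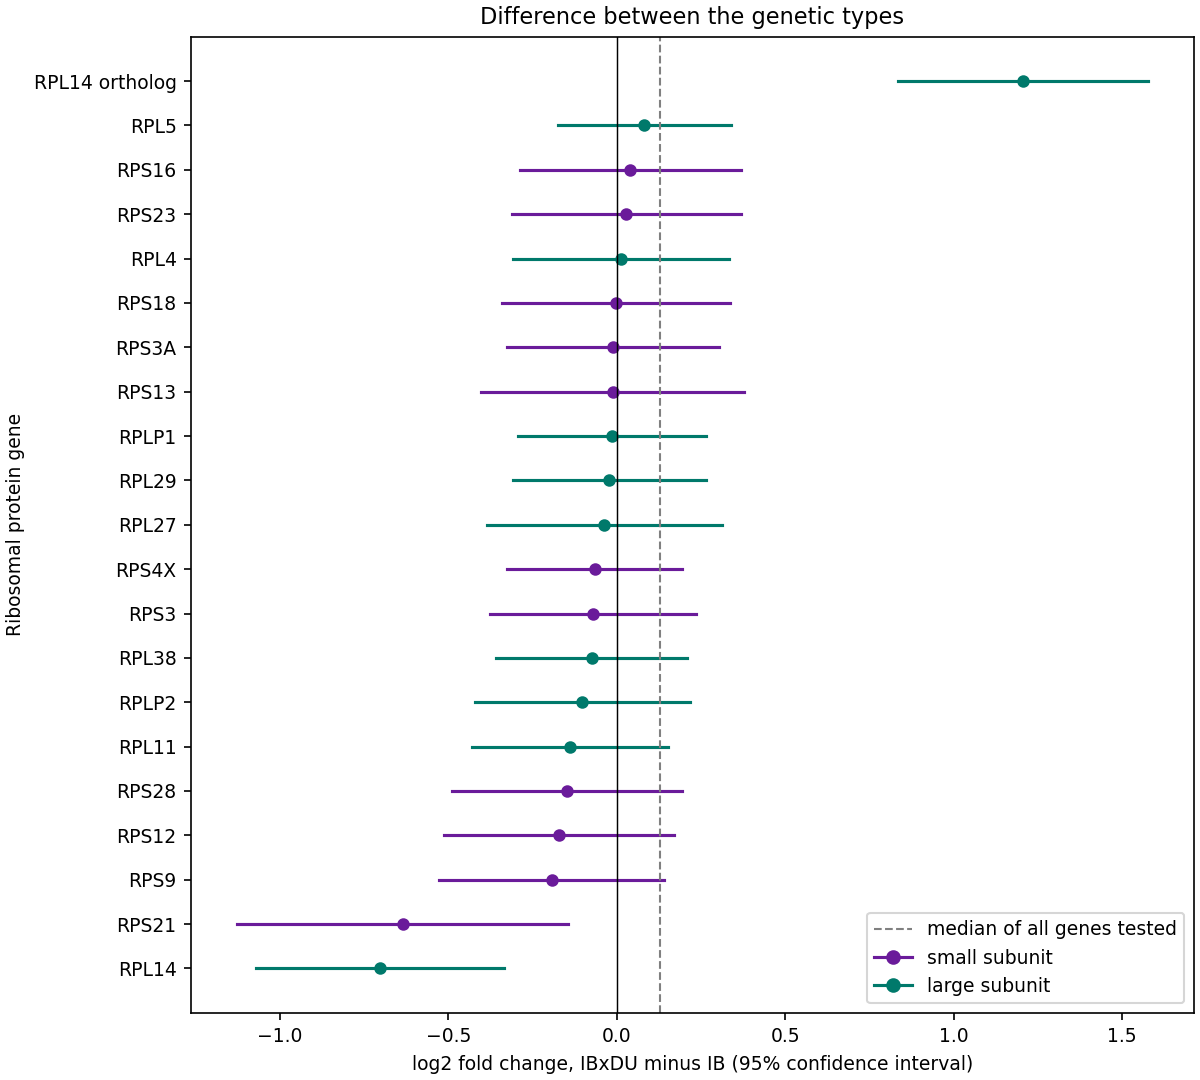
Log2 fold change of IBxDU minus IB with its 95% confidence interval for 21 of the 24 ribosomal protein genes, in purple for the small and green for the large subunit, with the median of all genes tested (0.13) as a dashed line. The RPL14 ortholog at 1.21 stands to the right, RPL14 at -0.70 and RPS21 at -0.64 to the left, and the other 18 shown lie between -0.19 and 0.08.

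In the large subunit, RPL5 and RPL11 bind the smallest ribosomal RNA together and, when free of ribosomes, hold back the p53 inhibitor MDM2. RPL5 was at 634 ± 56.9 and 670 ± 38.2 RPKM in IB and IBxDU (log2 difference 0.08), and RPL11 at 747 ± 102 and 676 ± 64.7 RPKM (-0.14). These partners thus had differences of opposite sign, neither past the test (adjusted p = 0.855 and 0.781, limma). RPL4, which lines the exit tunnel of the growing peptide, was at 882 ± 129 and 889 ± 123 RPKM (0.01). RPL27 was at 345.3 ± 59.1 and 336 ± 54.0 RPKM. RPL29 and RPL38, small proteins of the same subunit, had log2 differences of -0.02 and -0.07.

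The stalk of the large subunit recruits the elongation factors to the ribosome. Its protein RPLP1 was the most abundant member of all, at a lowest, median and highest of 2908, 3403 and 3718 RPKM in IB. In IBxDU it was at 3191, 2908, 3651, 3688 and 3194 RPKM, the same span. The means were 3358 ± 343 and 3326 ± 334 RPKM (log2 difference -0.01, SE 0.13, SD with n = 6 and 5). Its partner RPLP2 was at 1461 ± 255 and 1346 ± 99.7 RPKM (-0.10), and IB-431 held the lowest IB value of both. RPLP1 alone made 15.0 to 18.5% of the summed RPKM of the 24 members in an animal.

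Of the 14 members of the small subunit, RPS12 was the most abundant. It was at 1576, 1933 and 2667 RPKM (lowest, median and highest) in IB and 1932, 1853, 1630, 1668 and 1938 RPKM in IBxDU. Its IB values were the more scattered, with IB-323 and IB-345 above every IBxDU animal (log2 difference -0.17, adjusted p = 0.769, limma). RPS9, which lies near the entry of the messenger RNA, had the lowest difference of the 21, with 747 ± 125 and 650 ± 92.4 RPKM (-0.19). RPS28 had a difference of -0.15. RPS23, a protein of the decoding centre, was at 771 ± 153 and 778 ± 96.1 RPKM (0.03), and RPS16 at 976 ± 104 and 1015 ± 200 RPKM (0.04).

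RPS18, a protein of the head of the small subunit, differed least, at 1149 ± 183 and 1147 ± 183 RPKM. RPS13 had the largest spread within IB on the log2 scale (446 ± 93.7 RPKM), set by IB-330 at 286 RPKM against 418 to 537 RPKM in the others. RPS21 had the largest within IBxDU. RPS3, RPS3A and RPS4X had log2 differences between -0.07 and -0.01.

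**Figure D3:**
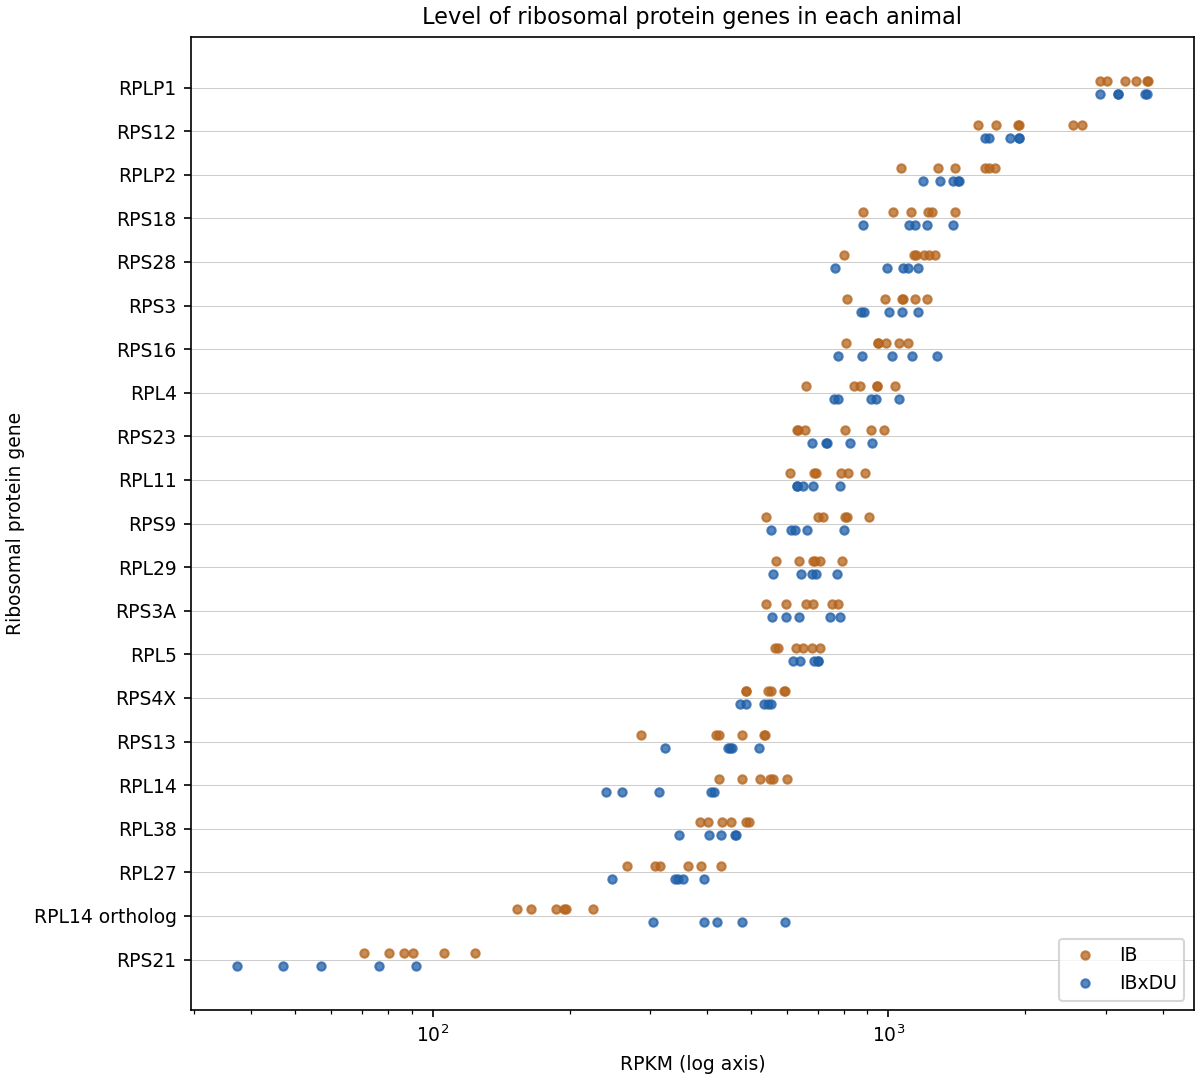
RPKM on a log axis of 21 of the 24 ribosomal protein genes in each animal, brown for IB and blue for IBxDU, ordered by the mean over all 11 animals. Levels run from 78.8 RPKM for RPS21 to 3344 RPKM for RPLP1, and only the RPL14 identifiers show groups that do not overlap.

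The level per length differed far more between the genes than between the genetic types. Mean RPKM over the 11 animals ran from 78.8 (RPS21) to 3344 (RPLP1), a 42.4-fold range, with a median of 671 RPKM that lay above 99.1% of all genes tested. After RPLP1 came RPS12 (1946 RPKM), RPLP2 (1409) and RPS18 (1148). Among the lowest were, above RPS21, the RPL14 ortholog (301) and RPL27 (341). The order of these genes differed between the genetic types, with means of 187 and 345.3 RPKM in IB and 438 and 336 RPKM in IBxDU. Across the members, log2 level and log2 length had a Pearson's r of -0.06 and a Spearman's rho of -0.37, as a description across genes that are not independent replicates.

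Ribosomal protein levels varied little among animals of a genetic type. The median coefficient of variation was 14.1% in IB and in IBxDU. The median SD on the log2 scale was 0.21 in IB and 0.20 in IBxDU, against 0.38 and 0.45 for all genes tested. Among the 667 genes with a mean at or above that of the lowest member it was 0.31 in both.

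The members also tended to be high or low together in an animal. Without the RPL14 identifiers, the 231 pairs of the other 22 genes had a median r of 0.51 between their deviations from the group means over the 11 animals, with 95.2% of the pairs above 0 (range -0.38 to 0.98). All pairs of tested genes had a median of 0.11. RPL27 followed the other members most (median r 0.70) and RPLP2 least (0.20). These points share their libraries, and no p is given. The animals that stood apart were IB-330, which had the lowest IB value for 19 of the 24 members, and IBxDU-412, with the lowest IBxDU value for 18 of 24.

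In IB-330 the median deviation of the 22 genes was -0.28 on the log2 scale and in IBxDU-412 it was -0.22, and in both animals 21 of the 22 lay below the mean of their group. The other animals had medians between -0.10 and 0.16. Their depth was not unusual, with 21685089 and 21278514 exon reads. IB-330 had the highest adipocyte (60.7 RPKM) and connective tissue markers (2050 RPKM) of IB, but IBxDU-402, which had the highest of all (108 and 3811 RPKM), had members above its group mean. IBxDU-412 was at 16.9 and 1558 RPKM. The part of these cells and of RNA quality in the low values was not tested. Without both animals the RPL14 ortholog had a log2 difference of 1.27 (adjusted p = 0.0335, limma) and RPL14 one of -0.75, and 3 members were again at an unadjusted p under 0.05, where 9.93% of all genes then were.

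**Figure D4:**
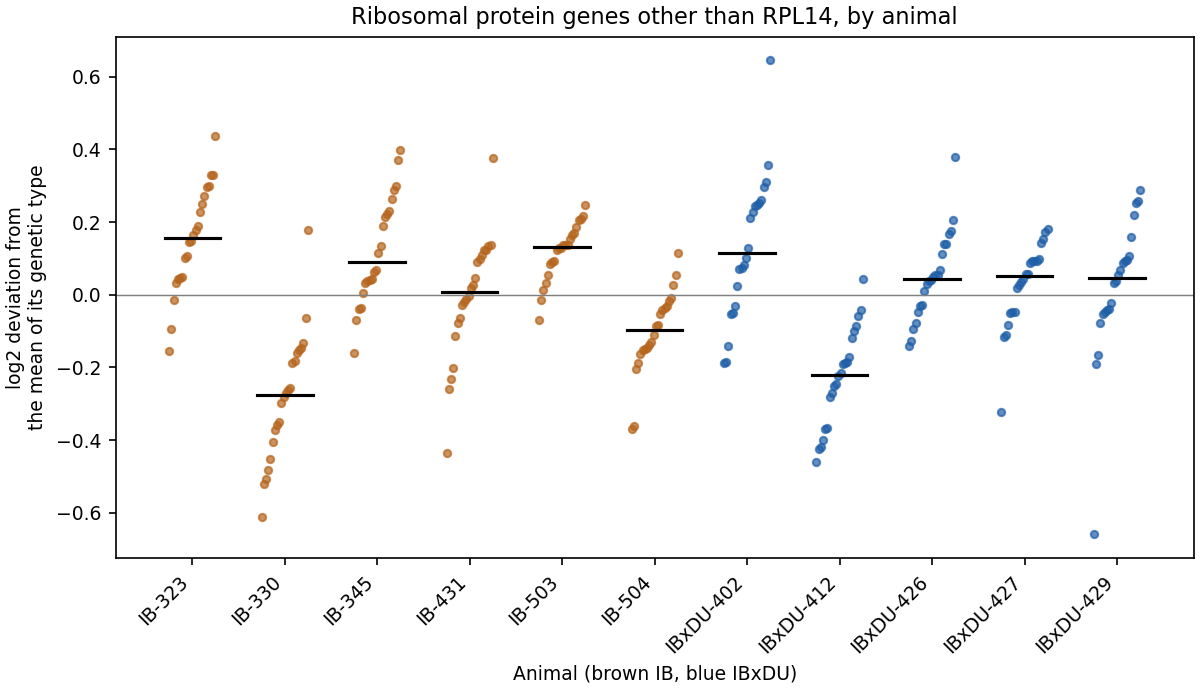
Each point is 1 of the 22 ribosomal protein genes other than the RPL14 identifiers, as its log2 deviation from the mean of its genetic type in that animal, sorted within the animal, with a black bar at the median. The bars of IB-330 (-0.28) and IBxDU-412 (-0.22) lie lowest, and the other bars lie between -0.10 and 0.16.

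As a whole, the ribosomal proteins made up a similar share of the summed RPKM in both genetic types. The 24 members made up 3.25, 2.63, 3.23, 3.28, 3.24 and 2.90% of the RPKM of all genes in the IB animals. They made up 3.21, 2.73, 3.03, 3.04 and 3.31% in the IBxDU animals. The groups overlapped over nearly their whole range, with means of 3.09 ± 0.266 and 3.07 ± 0.221% (SD, n = 6 and 5), and IB-330 and IBxDU-412 were the lowest of each. The members of the small subunit made 1.67 ± 0.186 and 1.63 ± 0.139% and those of the large subunit 1.42 ± 0.0877 and 1.44 ± 0.0957%. These values do not compare the whole subunits. The 10 most abundant other genes, led by mitochondrial COX3, COX1 and ATP6, took 31.2 to 38.5% of all RPKM in an animal. Without them, the members made up 4.86 ± 0.381% in IB and 4.71 ± 0.227% in IBxDU.

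Of the 24 members, 3 were at an unadjusted p under 0.05 (the RPL14 ortholog higher, RPL14 and RPS21 lower in IBxDU), against a background of 8.03% of all genes tested (6.00% higher in IBxDU and 2.02% higher in IB). The RPL14 ortholog was included after it had differed in these animals, so it adds to this count by choice. By the sign of the log2 difference alone, 19 of 24 were higher in IB, where 33.1% of all genes were. The median difference of the members was -0.05 and that of all genes 0.13. Of the 621 other genes within the members' range of mean RPKM, 53.5% were higher in IB, with a median of -0.02. The count also rests on single animals and on the scaling, since it was 11 of 24 without IBxDU-412 and 23 of 24 with either scaling. The scalings moved the share of all genes higher in IB to 47.3% (upper quartile) and 48.7% (median of ratios), and the median of all genes moved to 0.02 and 0.01.

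The rule left out 5 genes named as paralogs of ribosomal proteins. RPL10L, in human a retrogene copy of RPL10 known from the testis, was as abundant as the members, at 935 ± 164 and 945 ± 139 RPKM in IB and IBxDU. RPL10 itself matched no gene name in the table, so reads of the pair cannot be told apart here and the value is uncertain. The other paralogs were low, with RPL26L1 at 20.1 and 24.97 RPKM, RPL7L1 at 11.3 and 14.7, RPS27L at 11.5 and 12.2 and RPL36AL at 10.3 and 14.5, and none passed the test. FAU, which encodes RPS30 fused to a ubiquitin-like protein, was at only 8.32 ± 1.07 and 9.09 ± 2.72 RPKM, on a model of 5269 bases.

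Other genes of protein synthesis were taken from lists by role, of which 93 of 137 names had a gene, all tested. None of the 93 passed the test over all genes (limma), and 6 were at an unadjusted p under 0.05, all higher in IBxDU, where 6.00% of all genes tested were so. That count was 11 without IBxDU-402, 20 without IBxDU-412, 14 without IB-503 and 2 without IBxDU-426 or IBxDU-429. The same count over all genes tested, 713 of 11875 with every animal, moved too. It was 922 of 11741 without IBxDU-402, 998 of 11872 without IBxDU-412 and 630 of 11903 without IB-503. Without IBxDU-426 it was 784 of 11973, and without IBxDU-429 it was 339 of 11848.

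The elongation factors carry the ribosome along the messenger. Of the 4 genes found of this list, 3 factors were lower in IBxDU and EEF2K, the kinase that inhibits EEF2, was higher by 0.03 on the log2 scale, with a median log2 difference of -0.06. EEF2, which moves the messenger on by a codon, was at 817 ± 150 and 711 ± 88.2 RPKM (-0.19). EEF1B2 and EEF1D, which recharge elongation factor 1, were at 484 and 459 RPKM and at 192 and 185 RPKM.

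Of 27 initiation genes, 22 were higher and 5 lower in IBxDU (median 0.19), with 20 and 7 after upper quartile scaling and 19 and 8 after median-of-ratios scaling. Of the 3477 other genes in their abundance range 63.3% were higher in IBxDU (median 0.09), and 46.3 and 44.6% with the scalings. EIF2S2, a subunit of the factor that brings in the initiator tRNA, was at 97.1 ± 19.5 and 137 ± 21.0 RPKM in IB and IBxDU (log2 difference 0.50, limma adjusted p = 0.539). EIF4A2, a helicase, was at 253 ± 35.7 and 335 ± 61.7 RPKM (0.39, adjusted p = 0.572). LARP1 binds the oligopyrimidine tract of ribosomal protein messengers and was at 17.4 ± 3.88 and 24.1 ± 4.91 RPKM (0.48, limma adjusted p = 0.572).

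The genes of ribosome biogenesis, which process ribosomal RNA and assemble the subunits, were mostly higher in IBxDU. Of 31 measured, 30 were higher (median 0.44), and 29 with each scaling (medians 0.33 and 0.32). The median ran from 0.27 without IBxDU-429 to 0.63 without IB-503. Of the ribosomal proteins 5 of 24 were higher (13 of 24, with a median of 0.02, without IBxDU-412) and of all genes tested 66.9%, and the difference between the lists was not tested. Of the 8895 other genes in the abundance range of the biogenesis genes 67.6% were higher, with a median of 0.12. The exception was WDR43, named after its value was seen, at 2.06 ± 0.894 and 1.41 ± 0.302 RPKM. Only NAT10, which acetylates ribosomal RNA, was at an unadjusted p under 0.05, at 9.30 ± 2.47 and 14.3 ± 5.39 RPKM (log2 difference 0.57). That count of 1 became 9 without IBxDU-412, 8 without IB-503 and 0 without IB-330, IB-345, IB-431, IBxDU-426, IBxDU-427 or IBxDU-429. Of all genes tested, 6.00% were under this p and higher in IBxDU. These were 998 of 11872 genes without IBxDU-412 and 630 of 11903 without IB-503. In the fits with a count of 0 they ran from 339 of 11848 (without IBxDU-429) to 797 of 11859 (without IB-431). BOP1 and WDR12, partners in the assembly of the large subunit, were at 14.1 and 20.8 RPKM and at 5.10 and 7.26 RPKM. No gene of the list passed the test over all genes, and genes of 1 list share their libraries, so the count of signs carries no p.

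RNA polymerase I transcribes the ribosomal DNA. Of its 14 measured genes 11 were higher and 3 lower in IBxDU (median 0.21), with 9 and 5 under each scaling. TAF1B, a subunit of its promoter selectivity factor, was at 2.28 ± 0.539 and 3.75 ± 1.16 RPKM (log2 difference 0.68, unadjusted p = 0.0123 and adjusted p = 0.539 by limma). POLR1B, a large subunit of the polymerase, was at 5.34 and 7.28 RPKM and TAF1A at 3.17 and 4.28 RPKM. Of the 11 genes of mTOR signalling and the S6 kinases, which act on ribosomal protein S6, 5 were higher and 6 lower (median -0.02), and 3 and 8 under each scaling. RPS6KB1, the main S6 kinase, was at 6.47 and 8.63 RPKM in IB and IBxDU, AKT1S1, an inhibitor of the mTOR complex, at 39.8 and 33.5 RPKM, and RPS6KA3 at 18.0 and 21.6 RPKM.

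**Figure D5:**
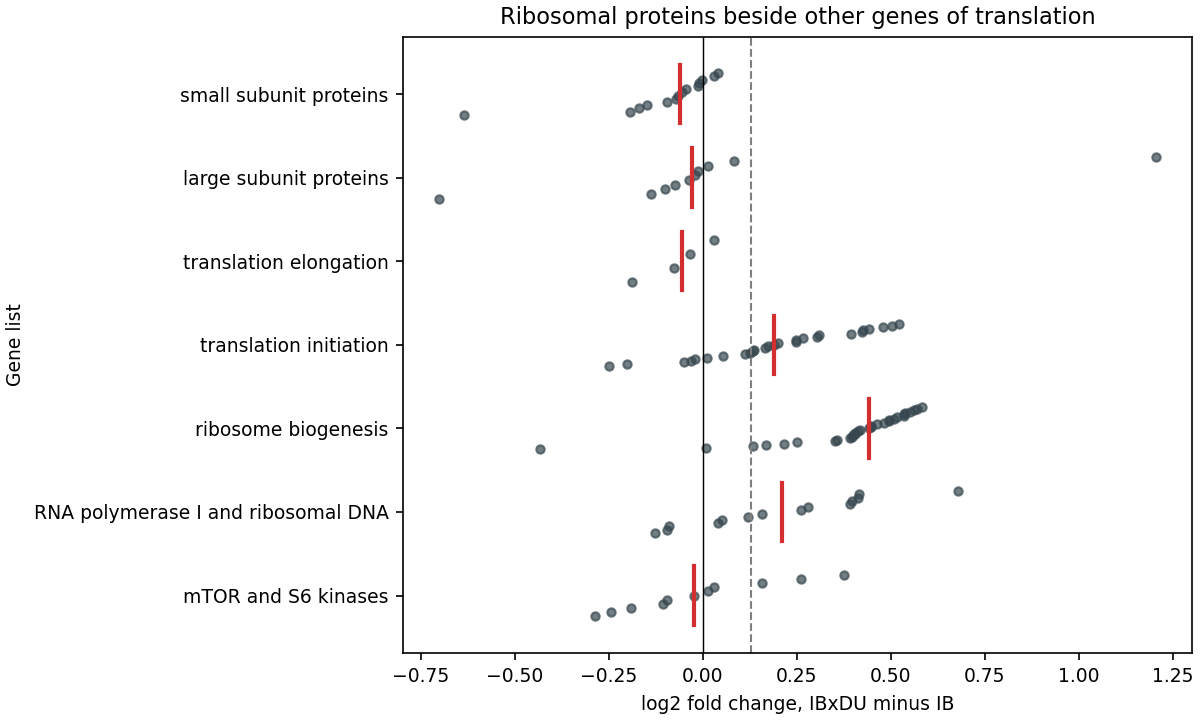
Log2 fold change of IBxDU minus IB for each gene (points) of the ribosomal proteins by subunit and of 5 lists of other genes of protein synthesis, with the list's median (red bar) and the median of all genes tested (dashed line, 0.13). The medians of the ribosomal protein and elongation lists lie just below 0, and that of ribosome biogenesis lies at 0.44.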

How the data were processed

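The deposited table holds 1 RPKM value per gene and animal, which the authors made in CLC Bio Genomic Workbench from paired reads mapped to the Sscrofa10.2 genome; their text calls the values FPKM. Build and program are credited to the submitters' notes and the methods. The table's columns of the authors' own comparison (p-values and fold changes) were not used. Dividing the values by their smallest steps gave whole reads for all 16953 genes above 0 (100%, tolerance 0.01 reads), and from these the read totals and exon lengths. Whether a recovered read stands for a single read or a pair is not known.

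The genetic types were compared with limma (version 3.58.1 in R 4.3.3, trend on mean expression) on log2(RPKM + 0.1), for 11875 genes with a mean over 0.5 RPKM in at least 1 group, with Benjamini-Hochberg adjustment over all of them and a threshold of 0.05. A fold change on this scale understates the change of low genes. Single values were compared by exact permutation of the animals (462 splits). The model held the genetic type alone, so littermates counted as independent animals. Scripts ran in Python 3.11.15 (numpy 2.4.6, pandas 2.3.3, scipy 1.17.1, matplotlib 3.10.9) and were tested on simulated data.

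The members, lists and tests were chosen with earlier results of these data known. Named genes were the RPL14 identifiers, members under an unadjusted p of 0.05, per direction the 5 members lowest in p, the 4 highest and 4 lowest in mean RPKM, those with the largest spread, the stalk proteins, up to 3 per list of other translation genes, and the 3 genes most like the RPL14 ortholog. Of the 24 members, 3 are not reported singly here and enter only counts, sums and medians. Alternatives were a pseudocount of 1, no filter, upper quartile and median-of-ratios scaling, limma without trend and robust, summing the RPL14 identifiers and leaving out each animal. After the data were seen, limma-voom on the recovered reads and leaving out both IB-330 and IBxDU-412 were added. The correlation between the RPL14 identifiers within IB was also not among the planned tests. No sequences were used, as no genome or sequence table was at hand.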

Additional observations from a re-analysis of the deposited data

Results flagged for a closer look

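Of 80 sets of values of 1 gene in 1 genetic type, 1 had an animal far from the others, where chance flags about 1 in 20. RPS6KA3, an S6 kinase family member that acts downstream of MAP kinase signalling, was at 22.7 RPKM in IB-503, against 16.1 to 18.1 RPKM in the other 5 IB animals. It is no ribosomal protein, and no member of the ribosomal protein list was flagged.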

How the results depend on the processing

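With 6 and 5 animals a single animal moves most counts, and RPKM shares depend on a few very abundant genes. No paired analysis was possible because the animal numbers of IB and IBxDU are not shared.

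The RPL14 ortholog kept its direction throughout but lost its call in 5 alternatives: its log2 difference was 1.21 (adjusted p = 0.0562) with limma-voom on the recovered reads, 1.21 (0.0542) without the filter, 1.21 (0.193) without trend, 1.10 (0.127) with upper quartile and 1.09 (0.245) with median-of-ratios scaling. It was 1.09 to 1.33 (0.0123 to 0.235) with each animal left out. Members called were 0 in these 5 and with the RPL14 identifiers summed, and 0 to 1 with an animal left out. Genes called over the whole table were 1 instead of 2 with voom, without trend, with either scaling and with the identifiers summed, and 1 to 2 with an animal left out. The annotated RPL14 kept its direction, at -0.80 to -0.60 with an animal left out. The sum of both identifiers turned to -0.0115 with median-of-ratios and -0.00135 with upper quartile scaling. Summing left 1 member at an unadjusted p under 0.05, and members higher in IB were 11 to 22 with an animal left out (11 without IBxDU-412).

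Translation genes at an unadjusted p under 0.05 and higher in IBxDU (6) were 1 with median-of-ratios and 2 with upper quartile scaling, 11 without IB-330 and IBxDU-412, and 2 to 20 with an animal left out. Those higher in IB (0) were 1 with median-of-ratios and 4 with upper quartile scaling, and 0 to 1 with an animal left out.

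Members and other genes close to no difference changed sign, none near the threshold. With median-of-ratios and upper quartile scaling these were RPL4 (-0.11 and -0.097), RPL5 (-0.038 and -0.028), RPS16 (-0.080 and -0.070), RPS23 (-0.092 and -0.082), FAU (-0.027 and -0.017), RPL10L (-0.10 and -0.090) and RPS27L (-0.045 and -0.035). Without IB-330 and IBxDU-412 they were RPL4 (-0.013), RPLP1 (0.0044) and RPS18 (0.015). With an animal left out, the ranges that crossed 0 were -0.13 to 0.0018 for EEF1B2, -0.14 to 0.072 for EEF1D, -0.064 to 0.17 for FAU, -0.11 to 0.070 for RPL27, -0.068 to 0.068 for RPL4, -0.053 to 0.034 for RPLP1, -0.13 to 0.093 for RPS13, -0.049 to 0.13 for RPS16, -0.076 to 0.090 for RPS18, -0.035 to 0.10 for RPS23, -0.075 to 0.041 for RPL29, -0.075 to 0.050 for RPS3A, -0.048 to 0.092 for RPL10L and -0.031 to 0.15 for RPS27L. The cause was not tested.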
